A study of Mus musculus with 22 samples.

Results

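The genes described are 9 ATP-binding cassette (ABC) transporters that export drugs, conjugates, sterols and phospholipids from liver cells. Members were the entries of the expression table whose symbol was Abcc2, Abcc3, Abcc4, Abcc6, Abcb1a, Abcb4, Abcg2, Abcg5 or Abcg8, and all 9 were found among 24197 genes. ABC transporters use ATP to move substrates across a membrane against a gradient. In the hepatocyte, members on the canalicular face (Abcc2, Abcb1a, Abcb4, Abcg2 and the Abcg5 and Abcg8 pair) release substrates into bile, while Abcc3, Abcc4 and Abcc6 lie on the sinusoidal face and release them towards blood. Several of these genes are known targets of the constitutive androstane receptor (CAR, Nr1i3), the pregnane X receptor (PXR, Nr1i2), the oxidant sensor NRF2 and the sterol sensors LXR.

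Polyadenylated RNA of liver nuclei was sequenced from CD-1 (ICR) mice aged 7 weeks, of both sexes for TCPOBOP and of males for PCN. TCPOBOP is a mouse CAR agonist, given at 3 mg/kg with livers taken after 3 h or 27 h, and PCN is a rodent PXR agonist, given at 50 mg/kg with livers taken after 3 h. Each comparison had its own vehicle pools from mice that received 1% DMSO in corn oil. Each pool combined nuclear RNA of 4 livers at 3 h and of 3 livers at 27 h, with 2 pools in each group of the TCPOBOP set and 3 in each group of the PCN set, so that p-values measure the spread between pools and not between animals. Livers of both times were collected at the same hour of the morning. No other allele or agent was named for any group, and the dose of neither compound was varied.

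The deposited table gives a mean FPKM (fragments scaled for gene length and for the depth of the pool) for each group, with a ratio and an adjusted p for each comparison. The FPKM of single pools was recovered from the decimals of those means, because each mean is a sum of whole read counts over known totals. Pool depth was 25398327 to 46684341 mapped fragments in the TCPOBOP set and 19048304 to 31886282 mapped fragments in the PCN set. The pools carry no replicate number and are named by depth. The genes recovered held 28.8% to 33.8% of mapped fragments in the TCPOBOP set but 12.9% to 14.6% in the PCN set. Levels are therefore not compared between the sets, except in the check against other vehicle pools. The summed FPKM of 6 hepatocyte markers was 1203 to 2227 over the 10 groups. The sums were 56.0 to 93.8 for 6 sinusoidal endothelium markers, 19.3 to 65.1 for 6 Kupffer cell markers, 18.3 to 35.8 for 6 stellate markers, 4.08 to 8.85 for 6 cholangiocyte markers, 2.67 to 10.3 for 6 lymphocyte markers and 5.04 to 10.2 for 5 of 6 neutrophil markers. Mpo in the female 3 h vehicle group and Cftr in the PCN group were listed at 0. Cyp2b10, a textbook CAR target, was raised 111.7-fold, 126.9-fold, 138.5-fold and 49.1-fold by TCPOBOP in males at 3 h, females at 3 h, males at 27 h and females at 27 h, by the authors' deposited table. In PCN livers Cyp3a11, the main PXR target, was raised 8.82-fold in the authors' deposited table.

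In vehicle livers the members spanned a wide range of nuclear RNA per length. Abcc6, which drives ATP release from hepatocytes, had the highest mean FPKM of the 9 in each of the 5 vehicle groups of the authors' deposited table, from 38.0 to 105. Abcg5 followed at 23.8 to 63.7 FPKM. Abcc3 (11.6 to 34.3), Abcb4 (10.3 to 25.2) and Abcc2 (13.4 to 23.2) changed order between groups. In each male vehicle group the pools of Abcc3 and Abcb4 overlapped. In female vehicle pools at 3 h Abcc3 lay below Abcc2 and Abcb4, which overlapped, and at 27 h Abcc3 lay above Abcb4 and Abcb4 above Abcc2 with no overlap. Abcg8 lay at 8.10 to 12.4 FPKM and Abcg2 at 4.05 to 8.58, and Abcg8 was above Abcg2 within each vehicle group. Abcc4, at 0.166 to 0.374 FPKM, and Abcb1a, at 0.0517 to 0.562 FPKM, were far below the other members. Pools of Abcc4 lay above those of Abcb1a in 4 of the 5 vehicle groups, and below them in females at 27 h. Abcb1a rested on 4 to 86 reads per vehicle pool, so its values carry a large counting error.

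**Figure D1:**
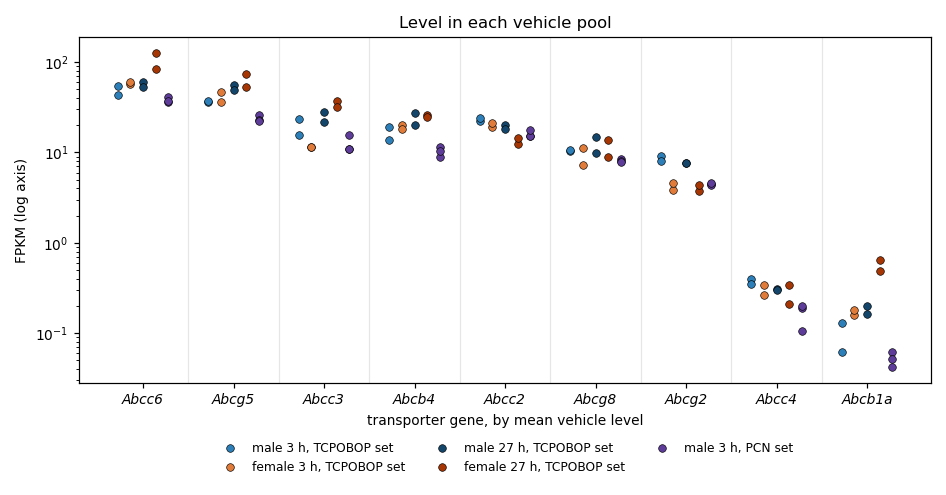
FPKM of the 9 transporters on a log axis in each of the 11 vehicle pools, 1 point a pool, coloured by vehicle group and ordered by the mean of the 5 groups. Abcc4 and Abcb1a stay under 1 FPKM in every vehicle pool, and Abcg2 is lower in the female than in the male pools of the TCPOBOP set.

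Across the 5 comparisons 7 of the 9 members passed the authors' threshold (adjusted p below 0.05) at least in 1, and Abcc6 and Abcg2 in none. In males at 3 h of TCPOBOP 1 member rose and 0 fell, against 0.612% of all genes raised and 0.256% lowered (1.33% and 0.505% of genes at 1 FPKM or more). In females at 3 h 2 rose and 2 fell, against 1.26% and 0.839% of all genes (2.67% and 1.84% of genes at 1 FPKM or more). At 27 h 3 rose and 3 fell in males, against 4.8% and 3.65% of all genes (8.71% and 7.61%), and 3 rose and 2 fell in females, against 3.49% and 2.86% (6.98% and 6.01%). After PCN 2 rose and 1 fell, against 5.22% and 4.55% of all genes (12.9% and 9.41%). Members that rose were from the Abcc and Abcb1 branches, and those that fell were Abcb4, Abcg5 and Abcg8.

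A second test, limma on log2(FPKM + 0.1) of the 22 recovered pools, was adjusted over all 14068 genes with a mean of at least 0.1 FPKM (13940 for PCN contrasts). Its counts of members higher and lower were 0 and 0 in males at 3 h of TCPOBOP (0.554% and 0.0711% of genes tested), 2 and 1 in females at 3 h (1.38% and 1.02%), 3 and 3 in males at 27 h (5.36% and 3.92%), 3 and 2 in females at 27 h (12.5% and 11.2%) and 1 and 1 after PCN (9.66% and 10%). For males at 3 h 2 members, Abcc2 and Abcc3, had an unadjusted p below 0.05 in limma, and the authors' table called 1. The share of all genes at an unadjusted p below 0.05 was not counted. Counts of members at that level, here and below, therefore have no background, and the percentages given refer to adjusted p. Abcc6 had no single solution in the PCN group, so its PCN pools are missing from the fit and 8 members were tested there. Of the 6 male 27 h calls of limma 3 or 4 were lost without any 1 of the 4 male 27 h pools, and Abcc2 and Abcg5 kept theirs in each case. Of the 5 female 27 h calls Abcb4 lost its own without the lower depth vehicle pool (adjusted p = 0.0816) or either TCPOBOP pool (0.0607 and 0.0523), and with the pools of the comparison alone (0.0582).

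**Figure D2:**
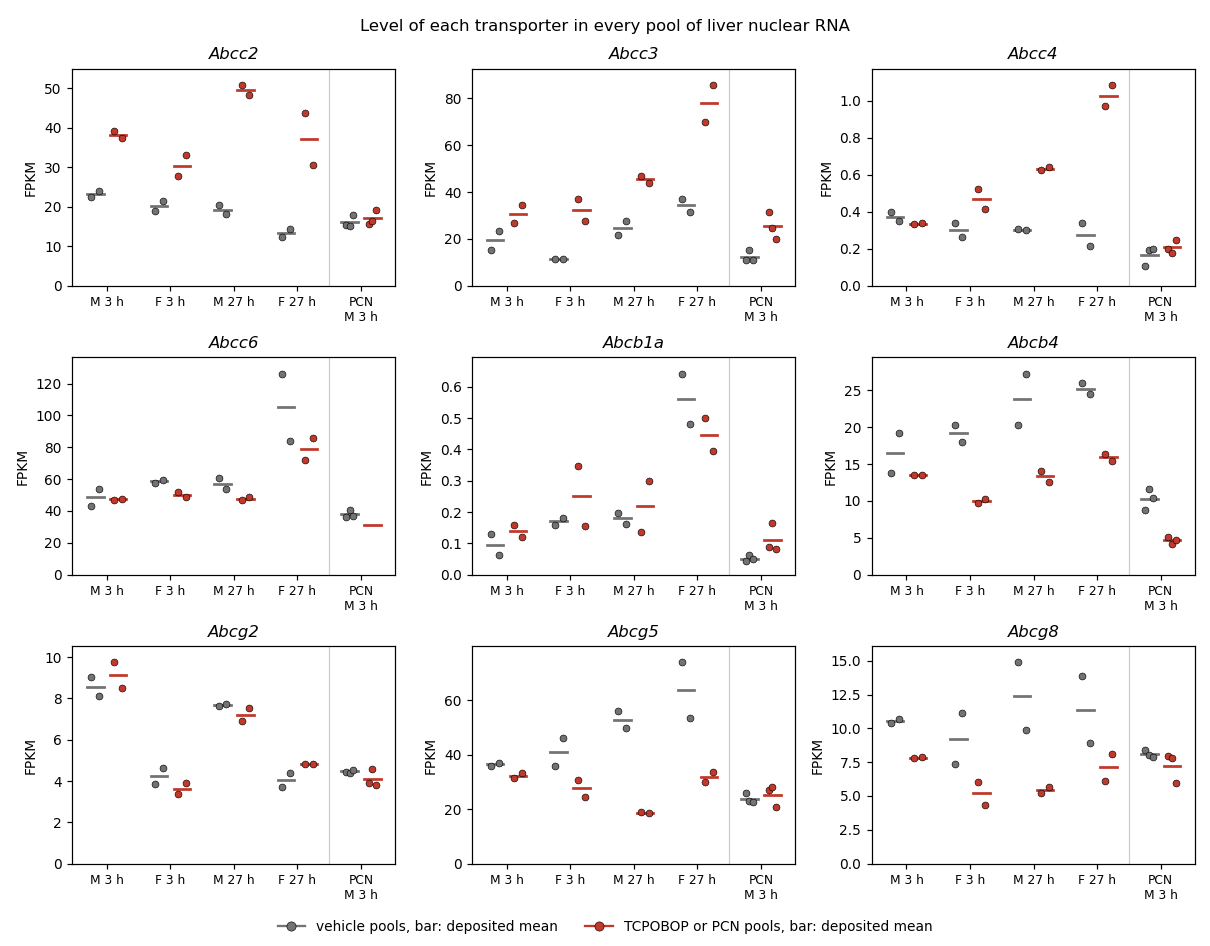
FPKM (linear axes from 0) of each transporter in every pool, with vehicle pools grey, TCPOBOP or PCN pools red and a bar at the deposited group mean; M and F are male and female, and the PCN set stands right of the line. The red pools of Abcc2 lie above the grey ones in all 4 TCPOBOP comparisons, and those of Abcb4 below. Pool points of Abcc6 in the PCN group are missing.

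Abcc2 exports bilirubin glucuronide and glutathione conjugates into bile. Its gene lies at chr19:43856798-43912708 (mm9). A promoter window of 300 bases, from 250 before to 50 after its start site, is shown because Abcc2 passed the authors' threshold in all 4 TCPOBOP comparisons. It is RefSeq's on GRCm38.p6 (chr19:43782058-43782357, plus strand, 5′ to 3′), with matches to the antioxidant element core TGACNNNGC and to the nuclear receptor half-site AGGTCA in capitals.
Abcc2: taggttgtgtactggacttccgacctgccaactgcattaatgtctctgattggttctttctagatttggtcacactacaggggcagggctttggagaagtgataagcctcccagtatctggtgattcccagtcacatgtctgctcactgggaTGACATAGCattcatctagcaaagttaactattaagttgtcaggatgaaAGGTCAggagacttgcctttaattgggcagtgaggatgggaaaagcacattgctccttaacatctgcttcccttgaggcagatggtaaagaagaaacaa
The core match starts at -98 and the half-site at -49 from the start site. Of 32851 promoter windows of the same length, 12.4% hold the core and 16.3% the half-site on either strand. AGGTCA was also in windows of Abcg2 (those from chr6:58584283 and chr6:58640296, not that from chr6:58596422). The core was also in windows of Abcc4 and Abcb1a. Windows were matched by symbol, and can belong to other transcript models than the one counted. The Abcb1a window (chr5:8566841-8567140) lies far before the gene span counted (from chr5:8660092 on mm9). A direct repeat of AGGTCA with 4 bases between, the form that CAR and PXR can bind, was in 0.0152% of windows. It was in no window of the 7 members that had one (not Abcc3 and Abcc6). A match describes letters and no binding.

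In males at 3 h the Abcc2 pools were at 22.4 and 23.9 FPKM with vehicle and at 39.3 and 37.3 with TCPOBOP. Female pools at 3 h were at 18.9 and 21.4 with vehicle and at 27.7 and 33.1 with TCPOBOP. In both sexes the treated pools lay above the vehicle pools with no overlap. By the authors' deposited table the rise was 1.64-fold in males (adjusted p = 0.00148) and 1.57-fold in females (adjusted p = 0.00800). limma gave a log2 difference of 0.64 (SE 0.16) in females, with an adjusted p of 0.0395, and of 0.70 (SE 0.16) in males, with an adjusted p of 0.0588. The female call was lost without any 1 of the 4 female 3 h pools (adjusted p 0.0623 to 0.240) and without any 1 of the male 3 h or male 27 h TCPOBOP pools, which enter through the shared spread (0.0522 to 0.0550). With the pools of the comparison alone its adjusted p was 0.174. It was also lost with no centring of the pools (adjusted p = 0.0525) and with no filter on low values (0.0538). The male difference was called without either female 27 h TCPOBOP pool (0.0211 and 0.0213).

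At 27 h Abcc2 was at 20.3 and 18.2 FPKM in male vehicle pools and at 50.9 and 48.2 with TCPOBOP. Female pools were at 12.3 and 14.4 with vehicle and at 43.7 and 30.5 with TCPOBOP. All treated pools again lay above all vehicle pools of their sex, and the female treated pools differed most between themselves. The female rise at 27 h was 2.88-fold by the authors' deposited table (adjusted p = 3.65e-08), and the limma log2 difference was 1.49 (SE 0.16, adjusted p = 1.22e-05). After PCN the pools were at 15.8, 16.5 and 19.3 FPKM, against 15.3, 15.1 and 17.9 with vehicle. These groups overlapped, and the ratio of 1.20 in the authors' deposited table had an adjusted p of 0.227.

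Abcc3 exports glucuronides and bile acids across the sinusoidal face, and its gene lies at chr11:94204609-94254290 (mm9). At 3 h of TCPOBOP its male pools were at 26.8 and 34.4 FPKM, against 15.5 and 23.4 with vehicle. The female pools were at 36.9 and 27.7, against 11.6 and 11.6 with vehicle. Treated pools lay above vehicle pools in both sexes. In the authors' deposited table the ratio was 1.56 in males (adjusted p = 0.206) and 2.91 in females (adjusted p = 8.14e-14). The limma log2 difference was 0.65 (SE 0.24, adjusted p = 0.510) in males and 1.51 (SE 0.24, adjusted p = 0.00215) in females. With the pools of the comparison alone the female limma call was lost (1.51, adjusted p = 0.0526).

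At 27 h the Abcc3 pools of males were at 21.7 and 27.8 FPKM with vehicle and at 47.1 and 43.7 with TCPOBOP. Those of females were at 37.0 and 31.6 with vehicle and at 70.0 and 85.8 with TCPOBOP. The groups did not overlap in either sex. Abcc3 rose 1.91-fold in males (adjusted p = 1.61e-07) and 2.38-fold in females (adjusted p = 1.26e-06) by the authors' deposited table. The male pools after PCN were at 31.5, 24.5 and 20.1 FPKM against 10.9, 15.5 and 10.9, again with no overlap. This PCN rise was 2.30-fold by the authors' deposited table (adjusted p = 1.64e-09) and 1.16 on the log2 scale in limma (SE 0.20, adjusted p = 0.000674).

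The female 3 h rise of Abcc3 depends on which vehicle pools it is set against. Female vehicle pools at 27 h were as high as the female TCPOBOP pools at 3 h. Set against those 27 h vehicle pools, the log2 quotient of the female 3 h TCPOBOP mean was -0.09, or 0.16 after centring on the median of expressed genes.

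Abcc4, a sinusoidal exporter of cyclic nucleotides and sulfated bile acids, lies at chr14:118881914-119105441 (mm9). At 3 h its male pools were at 0.332 and 0.338 FPKM with TCPOBOP and 0.397 and 0.352 with vehicle, and its female pools at 0.521 and 0.413 against 0.340 and 0.265. Male treated pools lay below and female treated pools above their vehicle pools, and neither ratio passed the authors' threshold.

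At 27 h Abcc4 was at 0.306 and 0.299 FPKM in male vehicle pools and at 0.623 and 0.643 with TCPOBOP. In females it was at 0.340 and 0.213 with vehicle and at 0.969 and 1.09 with TCPOBOP. There was no overlap, and the female treated pools held 170 and 268 reads against 54 and 45. Abcc4 rose 2.18-fold in males (adjusted p = 9.64e-06) and 3.94-fold in females (adjusted p = 4.42e-09) by the authors' deposited table. On the log2(FPKM + 0.1) scale, which understates changes of low genes, limma gave 0.92 (SE 0.21, adjusted p = 0.0132) in males and 1.65 (SE 0.21, adjusted p = 8.09e-05) in females. The male call of limma was lost without any 1 of the 4 male 27 h pools (adjusted p 0.0673 to 0.0912). After PCN the pools (0.200, 0.175 and 0.250 FPKM) overlapped those of vehicle (0.107, 0.192 and 0.199), with an adjusted p of 0.420 in the authors' deposited table.

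Abcc6, whose loss causes ectopic mineralization, lies at chr7:53231750-53285656 (mm9). Its log2 ratios in the authors' deposited table were -0.06, -0.16, -0.21, -0.34 and -0.10, in the order males 3 h, females 3 h, males 27 h, females 27 h and PCN. None passed the threshold. The treated pools lay below the vehicle pools with no overlap in females at 3 h and in males at 27 h. The female 27 h pools were at 126 and 84.1 FPKM with vehicle and at 72.1 and 86.0 with TCPOBOP, so the groups overlapped and the spread between vehicle pools was wide. Without the higher depth vehicle pool limma called a lower level with TCPOBOP (-0.62, adjusted p = 0.0127).

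Abcb4, the floppase that supplies phosphatidylcholine to bile, lies at chr5:8893721-8959226 (mm9). Its RefSeq promoter window on GRCm38.p6 (chr5:8893471-8893770, plus strand, 5′ to 3′) is shown because Abcb4 is the member that fell in most comparisons, and its capitals mark a match to the half-site AGTTCA on the opposite strand at -211.
Abcb4: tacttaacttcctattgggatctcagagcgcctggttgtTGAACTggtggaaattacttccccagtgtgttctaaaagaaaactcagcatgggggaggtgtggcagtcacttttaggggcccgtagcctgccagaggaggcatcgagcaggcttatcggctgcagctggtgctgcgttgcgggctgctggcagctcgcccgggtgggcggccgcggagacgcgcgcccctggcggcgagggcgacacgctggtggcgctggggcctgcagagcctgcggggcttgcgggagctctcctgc
AGTTCA was found in 13.99% of all promoter windows.

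At 3 h the Abcb4 pools of males were at 13.8 and 19.2 FPKM with vehicle and at 13.6 and 13.5 with TCPOBOP. Those of females were at 20.3 and 18.01 with vehicle and at 9.71 and 10.3 with TCPOBOP. The female groups were far apart, while the lower male vehicle pool lay next to the treated ones. In the authors' deposited table the male ratio of 0.812 had an adjusted p of 1, and the female ratio of 0.546 an adjusted p of 1.31e-05. In males limma gave -0.29 (SE 0.16, adjusted p = 0.925), which was not called. In females limma called a difference of -0.87 (SE 0.16, adjusted p = 0.00769). That limma call was lost without the lower depth vehicle pool (0.0737) or the lower depth TCPOBOP pool (0.0522), and with the pools of the comparison alone (0.0611).

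At 27 h Abcb4 was at 20.3 and 27.3 FPKM in male vehicle pools and at 14.1 and 12.5 with TCPOBOP, and in females at 25.96 and 24.5 with vehicle and at 16.4 and 15.5 with TCPOBOP. All treated pools lay below all vehicle pools of their sex. Abcb4 fell 1.72-fold in males (adjusted p = 8.80e-05) and 1.52-fold in females (adjusted p = 0.0463) by the authors' deposited table. After PCN it was at 5.17, 4.15 and 4.73 FPKM against 8.81, 11.6 and 10.3, with no overlap. That fall was 1.95-fold by the authors' deposited table (adjusted p = 4.23e-10), and limma gave -0.97 (SE 0.13, adjusted p = 0.000119).

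Abcc2 and Abcb4 feed conjugates and phospholipid into the same canaliculus, and their calls went in opposite directions, so their quotient within each pool is given as a description with no test. In the TCPOBOP set the Abcc2 FPKM was 0.476 to 1.62 times the Abcb4 FPKM in vehicle pools and 1.97 to 3.85 times in treated pools. In the PCN set it was 1.30 to 1.74 times in vehicle pools and 3.05 to 4.07 times in treated pools. Within each comparison all treated pools were above all vehicle pools, PCN included, where Abcb4 fell and Abcc2 did not pass the threshold. The pair was chosen with these calls known.

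**Figure D3:**
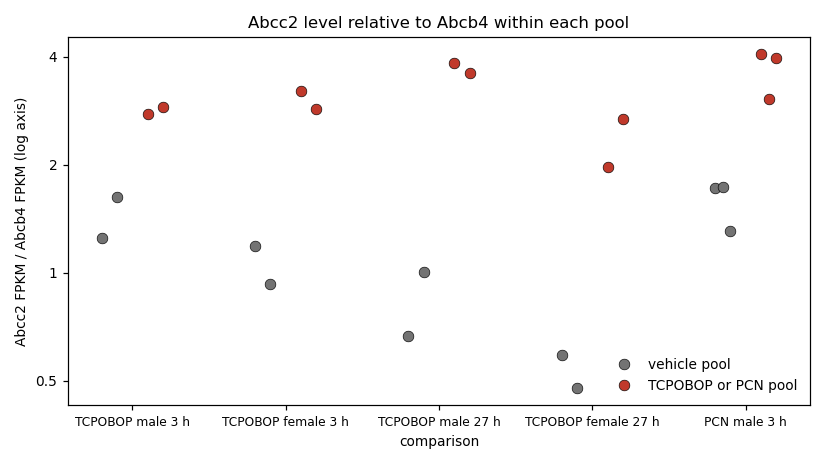
Quotient of Abcc2 FPKM over Abcb4 FPKM (log axis) in each of the 22 pools by comparison, 1 point a pool, vehicle grey and TCPOBOP or PCN red. In the TCPOBOP set vehicle pools lie between 0.476 and 1.62 and treated pools between 1.97 and 3.85. In the PCN set they lie between 1.30 and 1.74 and between 3.05 and 4.07.

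Abcb1a, a P-glycoprotein that exports hydrophobic drugs, lies at chr5:8660092-8748570 (mm9). After PCN its pools were at 0.0888, 0.166 and 0.0819 FPKM (9, 20 and 13 reads), against 0.0422, 0.0614 and 0.0515 with vehicle (4, 7 and 7 reads). The groups did not overlap, and the rise of 2.37-fold had an adjusted p of 0.0465 in the authors' deposited table. limma on the log2(FPKM + 0.1) scale gave 0.60 (SE 0.25) with an adjusted p of 0.105, so the rise was not called there. In the TCPOBOP comparisons the groups overlapped, and each adjusted p in the authors' deposited table was 1. Reads of Abcb1a, its near copy Abcb1b and Abcb4 can be hard to assign, and how the authors treated them is not given in the sources used here.

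**Figure D4:**
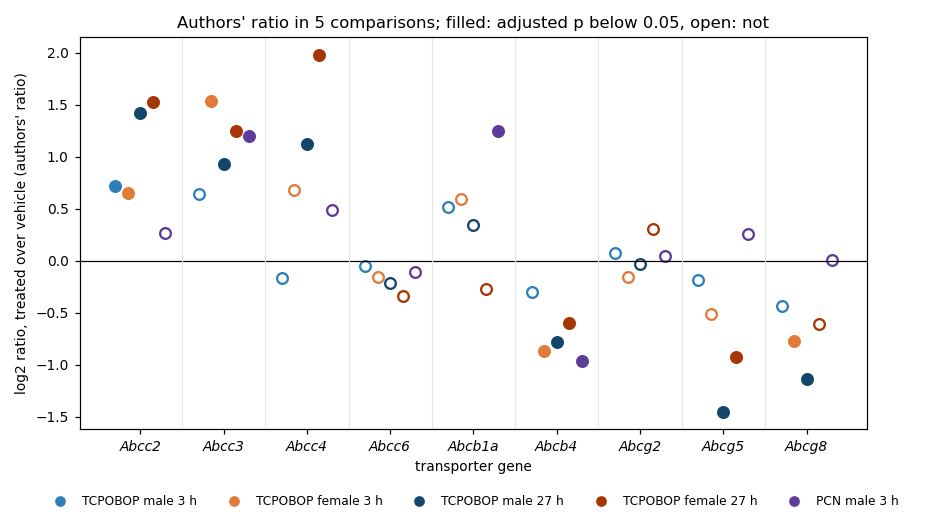
The authors' log2 ratio of treated over vehicle for each transporter in the 5 comparisons, filled where the deposited adjusted p was below 0.05 and open where it was not. Filled points are positive for Abcc2, Abcc3, Abcc4 and Abcb1a and negative for Abcb4, Abcg5 and Abcg8, and Abcc6 and Abcg2 have open points alone.

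Abcg5 and Abcg8 form 1 heterodimer that exports cholesterol and plant sterols into bile, and their genes lie head to head on opposite strands (mm9 chr17:85057574-85082263 for Abcg5 and chr17:85082461-85099673 for Abcg8). In RefSeq on GRCm38.p6 109 bases lie between the start sites, and the promoter windows of both genes share 209 bases (chr17:84682962-84683170). The Abcg8 window (chr17:84682871-84683170, plus strand, 5′ to 3′) is shown because it holds the whole shared stretch, in capitals. That stretch covers the bases between the start sites and the first bases of each gene.
Abcg8: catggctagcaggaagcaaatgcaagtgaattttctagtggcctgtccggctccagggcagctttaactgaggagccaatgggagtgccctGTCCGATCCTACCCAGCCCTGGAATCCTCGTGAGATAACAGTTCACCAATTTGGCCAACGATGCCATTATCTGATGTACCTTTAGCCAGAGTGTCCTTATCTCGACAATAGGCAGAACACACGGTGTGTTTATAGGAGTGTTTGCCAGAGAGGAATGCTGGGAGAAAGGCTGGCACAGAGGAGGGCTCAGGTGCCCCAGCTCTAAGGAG
A match to AGTTCA lies within the shared stretch, at -120 from the Abcg8 start site and at 6 from the Abcg5 start site, within the Abcg5 gene. A further Abcg8 transcript model begins within the span of Abcg5 (mm9 chr17:85075642-85099673), and the PCN libraries are labelled unstranded, so reads of that overlap cannot be assigned by strand there.

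At 27 h the Abcg5 pools of males were at 56.1 and 49.7 FPKM with vehicle and at 18.8 and 18.4 with TCPOBOP. Those of females were at 73.8 and 53.6 with vehicle and at 30.1 and 33.8 with TCPOBOP. Treated pools were below vehicle pools in both sexes, with the wider gap in males. The female fall was 1.90-fold by the authors' deposited table (adjusted p = 0.00118). limma gave -1.44 (SE 0.17, adjusted p = 8.28e-05) in males and -0.93 (SE 0.17, adjusted p = 0.00137) in females. With the pools of the comparison alone the female call was lost (-0.94, adjusted p = 0.0553).

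At 3 h Abcg5 did not pass the authors' threshold in either sex. The male pools were at 36.0 and 37.0 FPKM with vehicle and at 31.4 and 33.2 with TCPOBOP, and the female pools at 35.9 and 46.2 against 30.8 and 24.4. The treated pools were lower without overlap, and the adjusted p in the authors' deposited table was 1 in males and 0.206 in females. After PCN Abcg5 was at 27.0, 28.2 and 20.6 FPKM against 25.8, 22.9 and 22.6, and the groups overlapped.

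Abcg8 pools of males at 27 h were at 14.9 and 9.85 FPKM with vehicle and at 5.18 and 5.64 with TCPOBOP. In females they were at 13.8 and 8.92 with vehicle and at 6.09 and 8.12 with TCPOBOP. There was no overlap in either sex, but the 2 vehicle pools of each were far apart. Abcg8 fell 2.20-fold in males by the authors' deposited table (adjusted p = 3.27e-07), and the female ratio of 0.656 there had an adjusted p of 0.147. In limma the male difference was -1.09 (SE 0.24, adjusted p = 0.0109), and it was not called without the lower depth vehicle pool (0.137), the lower depth TCPOBOP pool (0.0827) or the higher depth TCPOBOP pool (0.0586). The female difference was called by limma without the higher depth 27 h vehicle pool (0.0294).

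In females at 3 h Abcg8 was at 7.35 and 11.1 FPKM with vehicle and at 6.06 and 4.33 with TCPOBOP. It fell 1.71-fold by the authors' deposited table (adjusted p = 0.0405), while limma gave -0.75 (SE 0.24, adjusted p = 0.137). The male pools at 3 h (10.4 and 10.7 against 7.82 and 7.85) also lay apart, with an adjusted p of 0.282 in the authors' deposited table. After PCN the Abcg8 ratio in the authors' deposited table was 1.01. Within single pools Abcg5 was 2.85 to 6.01 times as high as Abcg8 in FPKM, and over the 5 comparisons their log2 ratios had a root mean square difference of 0.28, the smallest of the 36 pairs of members.

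Abcg2 exports sulfates, urate and many drugs into bile, and its gene lies at chr6:58546666-58642445 (mm9). It passed the threshold in no comparison with a compound, although limma called it higher in females at 27 h without the higher depth vehicle pool (adjusted p = 0.0420), and it differed by sex. Male vehicle pools were at 9.04 and 8.12 FPKM at 3 h and at 7.62 and 7.73 at 27 h. Female vehicle pools were at 3.83 and 4.64 at 3 h and at 3.70 and 4.40 at 27 h. Every female pool lay below every male pool of the TCPOBOP set, and the treated pools kept that order, with 6.89 to 9.74 FPKM in males and 3.35 to 4.83 in females. At 27 h treated and vehicle pools of the same sex did not overlap, with TCPOBOP pools lower in males and higher in females. The ratios in the authors' deposited table were 0.978 in males and 1.24 in females. The limma female minus male log2 difference in vehicle livers was -0.97 (SE 0.12, adjusted p = 0.000185) at 3 h and -0.93 (SE 0.12, adjusted p = 8.94e-05) at 27 h.

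Among vehicle livers at 3 h Abcg2 was the 1 member of 9 that differed between the sexes (2.39% of genes tested were higher and 2.8% lower in females). At 27 h 2 members were higher and 2 lower in females, against 17.9% and 18.4% of genes. Abcc6 was higher by 0.83 (SE 0.16, adjusted p = 0.00166) and Abcb1a by 1.21 (SE 0.30, adjusted p = 0.00618) on the log2 scale in limma. Abcc2 was lower in females, with a limma log2 difference of -0.55 (SE 0.16, adjusted p = 0.0127). The calls of Abcc2 and Abcb1a were lost when the lower depth female 27 h vehicle pool was left out (adjusted p 0.131 and 0.0647), and that of Abcc2 also without the lower depth male 27 h vehicle pool (0.105). Between the male and female 27 h vehicle groups the marker sums went from 42.6 to 65.1 FPKM for Kupffer cells, from 1532 to 1220 for hepatocytes, from 7.98 to 4.08 for cholangiocytes, from 29.7 to 19.5 for stellate cells and from 93.8 to 67.9 for sinusoidal endothelium, and their part in these differences was not tested.

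Female vehicle livers also differed between the collection times. Compared with 3 h, the 27 h female vehicle pools had 4 members higher and 1 lower, against 22% and 21.6% of all genes tested. Abcc3 was higher by 1.405 (SE 0.24, adjusted p = 0.000257), Abcb1a by 1.13 (SE 0.30, adjusted p = 0.00700), Abcc6 by 0.67 (SE 0.16, adjusted p = 0.00458) and Abcg5 by 0.48 (SE 0.17, adjusted p = 0.0340) on the log2 scale in limma. Abcc2 was lower, by a limma log2 difference of -0.73 (SE 0.16, adjusted p = 0.00144). Without the lower depth female 27 h vehicle pool the calls of Abcb1a, Abcc6 and Abcg5 were lost (adjusted p 0.0654, 0.0744 and 0.331), and that of Abcg5 also without the lower depth female 3 h vehicle pool (0.300).

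Between the same female vehicle groups the Kupffer marker sum went from 37.2 to 65.1 FPKM, the hepatocyte marker sum from 1723 to 1220 and the livers per pool from 4 to 3. The part of these in the differences was not tested, and in whole liver fewer cells of a type cannot be told apart from less RNA per cell. In female TCPOBOP livers the Kupffer sum was 51.9 at 3 h and 48.5 at 27 h. In male vehicle livers 0 of 9 members differed between 27 h and 3 h in limma, against 4.26% of genes higher and 4.18% lower by adjusted p. At an unadjusted p below 0.05 there were 3 members, with no share of all genes counted at that level. Abcb4 was called there without the higher depth male 3 h vehicle pool (0.0468).

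Whether the response changed with time was tested as a difference of log2 differences, in limma. In males 1 of 9 members passed, lower at 27 h (0.242% of genes tested were higher and 0.0426% lower). This was Abcg5, whose response at 27 h was -1.25 log2 units from that at 3 h (SE 0.24, adjusted p = 0.0452, 95% interval -1.76 to -0.73). The treated male pools were lower at 27 h than at 3 h, and the vehicle pools were higher. The call was lost without any 1 of the 8 male TCPOBOP set pools (adjusted p 0.0848 to 0.166). In females 0 of 9 passed, against 1.74% of genes higher and 0.846% lower by adjusted p, and 3 members had an unadjusted p below 0.05. The female difference was 0.85 for Abcc2 (95% interval 0.38 to 1.31, adjusted p = 0.0528) and 1.10 for Abcc4 (95% interval 0.46 to 1.73, adjusted p = 0.0624). Abcc2 was called without the higher depth female 27 h vehicle pool (0.0344), the higher depth female 27 h TCPOBOP pool (0.00937) or the highest depth PCN pool (0.0498), and Abcc4 without the lowest depth vehicle pool of the PCN set (0.0446).

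Whether the response differed between the sexes was tested in the same way, and 0 of 9 members passed at 3 h or at 27 h in limma (at 3 h 0.0355% of genes were higher and 0% lower in females, and at 27 h 0.0284% and 0.0284%). At 3 h 3 members had an unadjusted p below 0.05, and at 27 h 1. The widest 3 h difference was that of Abcc3, at 0.86 (95% interval 0.15 to 1.58, adjusted p = 0.595). For Abcc2 the interval was -0.52 to 0.41 at 3 h and -0.39 to 0.54 at 27 h. A missed threshold does not show that the sexes responded alike.

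TCPOBOP and PCN differed in dose, library set and counting, so their male 3 h responses are given side by side, each within its own set. For Abcb4 the log2 ratio in the authors' deposited table was -0.30 after TCPOBOP and -0.96 after PCN, for Abcc2 0.71 and 0.27, for Abcc3 0.64 and 1.20, and for Abcg8 -0.44 and 0.01. In limma 0 of 8 members passed for the difference between these responses, against 2.04% of genes higher and 1.89% lower by adjusted p. At an unadjusted p below 0.05 there were 2 members, Abcc2 and Abcb4. The Abcb4 difference was -0.69 (95% interval -1.13 to -0.24, adjusted p = 0.0822), and it was called without the higher depth TCPOBOP set vehicle pool (0.0316) or the lowest depth PCN set vehicle pool (0.0441). The authors' ratios in the PCN set lie 0.17 log2 units above the quotients of the mean FPKM at the median gene, so changes of less than that size depend on the scaling.

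**Figure D5:**
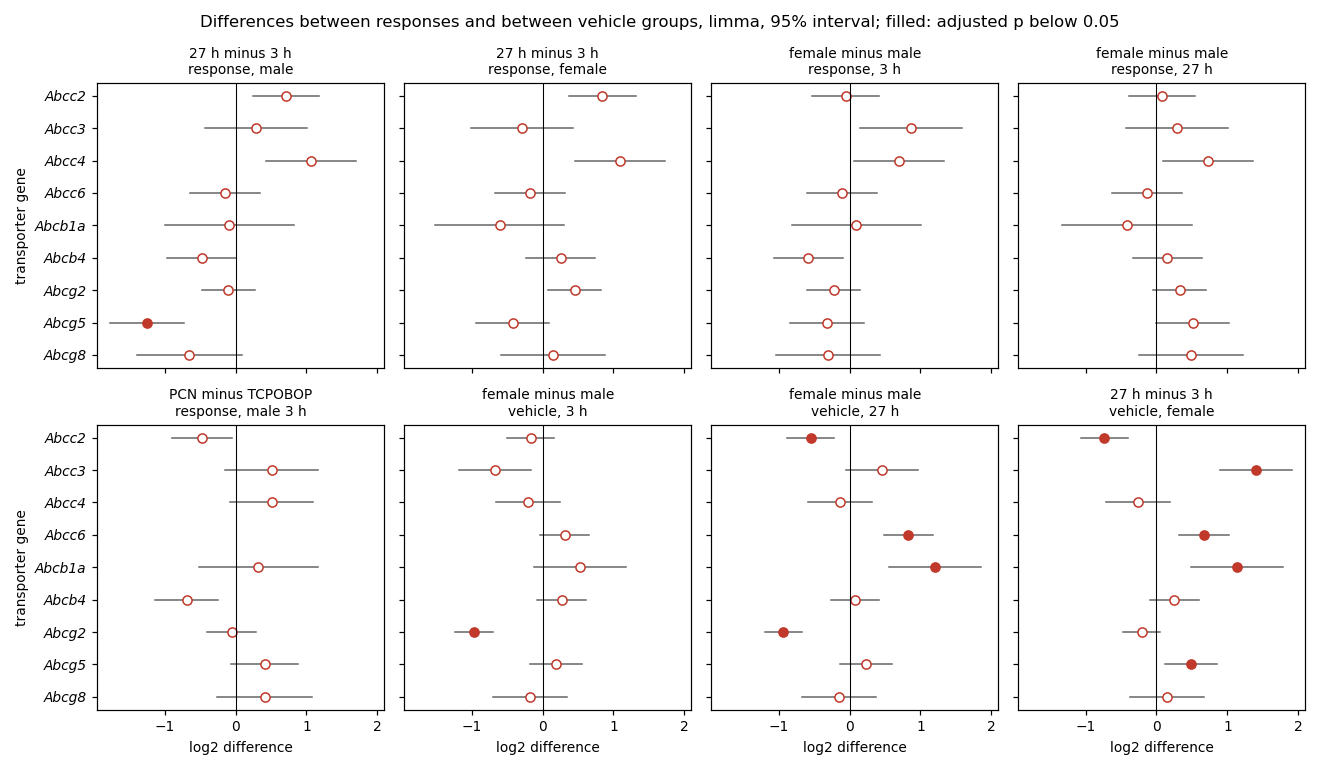
limma log2 differences with 95% intervals for the 9 transporters, each panel 1 contrast between responses or between vehicle groups, filled where the adjusted p was below 0.05. Filled points are Abcg5 for the male time difference, Abcg2 in both sex contrasts of vehicle livers, and Abcc2, Abcc6, Abcb1a, Abcc3 and Abcg5 in 1 or both of the contrasts with the female 27 h vehicle pools; Abcc6 has no value for PCN.

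Counts of related genes are read against the shares of all genes given above. Of 17 further exporters and lipid flippases, among them the bile salt pump Abcb11 and the cholesterol exporter Abca1, 0 passed the authors' threshold in either direction at 3 h of TCPOBOP in both sexes and at 27 h in females, and 1 rose at 27 h in males, the potassium channel subunit gene Abcc9 (1.398-fold, adjusted p = 0.0131, authors' deposited table). After PCN 1 rose (Abcc9, 1.43-fold, adjusted p = 0.00535, authors' deposited table) and 3 fell. Abca8a was lowered 2.38-fold by PCN (adjusted p = 7.10e-19), Abca8b 1.56-fold and Abca2 1.31-fold in the authors' deposited table. Of 15 intracellular ABC genes 0 passed at 3 h of TCPOBOP, and the ribosome recycling factor gene Abce1 rose 1.64-fold in males and 1.87-fold in females at 27 h by the authors' deposited table, while Tap1 fell 1.48-fold in males and Abcb9 1.996-fold in females. Of the 15, 1 rose and 1 fell at 27 h in each sex, and after PCN 2 rose and 3 fell. The median log2 ratio of expressed members ran from -0.15 to -0.02 over the comparisons for the exporters and from -0.15 to 0.05 for the intracellular genes, against -0.02 to 0.03 for all expressed genes, in the authors' deposited table.

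Among 12 non-ABC partners of efflux 0 rose and 0 fell in males at 3 h, 2 and 0 in females at 3 h, 2 and 1 in males at 27 h, 3 and 1 in females at 27 h and 1 and 2 after PCN, by the authors' threshold. Pdzk1, a scaffold that binds transporters at the membrane, was raised 1.73-fold in females at 3 h, 1.69-fold in males at 27 h, 1.72-fold in females at 27 h and 1.36-fold by PCN in the authors' deposited table. The related scaffold gene Slc9a3r1 was raised in the same 3 TCPOBOP comparisons, by 1.64-fold, 1.35-fold and 1.54-fold in the authors' deposited table. Scarb1, the lipoprotein receptor that brings cholesterol into the hepatocyte, was lowered 1.44-fold in males and 1.73-fold in females at 27 h, in the authors' deposited table.

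Of 14 receptors and factors known to act on ABC genes 2 rose and 0 fell in males at 3 h, 2 and 1 in females at 3 h, 1 and 1 in males at 27 h, 1 and 3 in females at 27 h and 3 and 2 after PCN, by the authors' threshold. Ahr was raised in all 5 comparisons, by 1.47-fold to 2.29-fold in the authors' deposited table. Nr1i2, which encodes PXR, was raised at 3 h, by 1.60-fold in males and 1.67-fold in females given TCPOBOP and by 2.34-fold after PCN, in the authors' deposited table. Nr1i3, which encodes CAR, was lowered at 27 h by 1.60-fold in males and 1.91-fold in females by the same authors' deposited table. Ppara, the fatty acid receptor known to act on Abcb4 in mice, was lowered 1.84-fold in females at 3 h, 1.60-fold in females at 27 h and 1.84-fold by PCN in the authors' deposited table. Nfe2l2, which encodes NRF2, was lowered 1.65-fold in females at 27 h in the authors' deposited table.

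For each member called in at least 2 comparisons, the 3 genes with the most similar log2 ratios were sought among 9887 genes with a mean of at least 1 FPKM, by the root mean square difference over the 5 comparisons in the authors' deposited table. Nearest to Abcc2 were Sar1b (0.06), Ttc39b (0.16) and Echdc1 (0.21). Nearest to Abcc3 were Insc (0.21), Nrg4 (0.25) and Pusl1 (0.27), and to Abcc4 Clcf1 (0.15), Yod1 (0.25) and Mob1a (0.27). Abcb4 was nearest to Echdc3 (0.13), Fgfr4 (0.16) and Ppara (0.17). Abcg5 was nearest to Nfil3 (0.18), Lmbr1l (0.24) and Wipf3 (0.26), and Abcg8 to Avpr1a (0.17), Gm15348 (0.19) and Slc1a2 (0.19). These are descriptions over 5 comparisons.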

How the data were processed

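Polyadenylated nuclear RNA of 22 liver pools was sequenced, in 10 groups and 5 comparisons. The submitters' processing notes name TopHat2, the build mm9, featureCounts 1.4.6-p5, HTSeq 0.6.1p1 and edgeR, with no role. Per the file headers, the authors' edgeR comparisons used gene bodies, with HTSeq named for PCN. The deposited table holds mean FPKM per group, a treated over vehicle ratio and an adjusted p-value, all made by the authors. The TCPOBOP libraries are labelled stranded and the PCN libraries unstranded, while the kit named for all of them marks strand.

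Reads per pool were recovered from the deposited mean FPKM: with whole pool totals found from short genes, each gene's length and whole read counts were solved at the decimals of the table. The lengths solved for members were 2263 to 5895 bases, shorter than the gene spans. A single solution was found in all 10 groups for 18916 of 19102 genes above 0 (99.0%). In a control of 500 expressed genes, each length was kept as already solved with the true totals. The 99.6% solved with those totals was thus fixed in advance. With totals wrong by 1000 fragments 0% were solved at the kept lengths. No length was sought anew there, so the control cannot tell how often wrong totals would find another solution. The FPKM recovered for each pool was tested with limma 3.58.1 (R 4.3.3) on log2(FPKM + 0.1), pools centred on the median of expressed genes, all 10 groups in 1 fit, genes with a mean of at least 0.1 FPKM, Benjamini-Hochberg adjustment over all genes. The planned design had foreseen group means alone, so this test and its alternatives were added after the table was seen. In a simulation, counts were drawn from the mean vehicle levels and the depths of the pools. Their spread was assumed, equal for all genes, and not taken from the pools. With 2 pools against 2 (male 3 h TCPOBOP, 13800 genes) limma called 32 of 100 genes changed 2-fold and 3 of 100 changed 1.5-fold. With 3 against 3 (PCN) it called 70 of 100 and 15 of 100. Intervals are 95%. Called means an adjusted p below 0.05. Contrasts that share vehicle pools (27 h minus 3 h, and vehicle differences, with the comparisons they come from) are not independent.

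All 9 members were named. Up to 4 called genes with the smallest adjusted p per list and comparison were named, and 3 nearest genes per member. The members and lists were chosen with earlier results of these data known. Promoters are RefSeq's on GRCm38.p6, and entries for 7 of 9 members were matched by symbol (not Abcc3 and Abcc6). Versions used were Python 3.11.15, numpy 2.4.6, pandas 2.3.3 and numba 0.67.0. Alternatives were other thresholds, a minimum fold of 1.5, a minimum of 1 FPKM, quotients of FPKM with a pseudocount of 0.1 or 1, centring, other vehicle pools and pools left out in turn.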

Additional observations from a re-analysis of the deposited data

Results flagged for a closer look

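The response of Abcg5 to TCPOBOP in males differed between the times: the log2 difference of treated and vehicle pools was lower at 27 h than at 3 h by -1.25 in limma (SE 0.24, adjusted p = 0.0452), with both treated pools lower and both vehicle pools higher at 27 h. The call was lost with genes at a mean of at least 1 FPKM (adjusted p = 0.0538) and with no filter on low values (0.0505). It was also lost when any 1 of the 8 male TCPOBOP set pools at 3 h or 27 h was left out, with a difference of -1.15 to -1.34 and an adjusted p of 0.0848 to 0.166, and when any 1 of the 5 PCN set pools other than the highest depth PCN pool was left out, with an adjusted p of 0.0509 to 0.0650.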

How the results depend on the processing

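No paired analysis was possible because the recovered pools carry no replicate number. Under adjusted p thresholds of 0.01 and 0.1, a minimum of 1.5-fold and a minimum of 1 FPKM, each count of members called by the authors stayed within 1.5 times its value. limma on the recovered pools called 0 members in males at 3 h of TCPOBOP, where the authors called 1. Of the log2 ratios past the authors' threshold 1 changed sign under these settings: Abcc3 in females at 3 h was -0.086 against the 27 h female vehicle pools, or 0.16 once centred. Others kept their sign and changed in size. Against 3 h vehicle pools, without centring, the called ratios of females at 27 h changed as follows. Abcc2 went from 1.53 to 0.88, Abcc3 from 1.25 to 2.74 and Abcc4 from 1.98 to 1.49. Abcb4 went from -0.60 to -0.26 and Abcg5 from -0.93 to -0.36. With a pseudocount of 1 the 27 h ratio of Abcc4 went from 1.12 to 0.33 in males and from 1.98 to 0.67 in females. Of the log2 ratios that did not pass, 10 changed sign against other vehicle pools, 2 with the FPKM quotient at either pseudocount (Abcg2 and Abcg8 after PCN), and 1 (Abcg8 after PCN) with centring and with limma. Among the 10 were Abcc2, Abcc4, Abcg2, Abcg5 and Abcg8 after PCN, set against TCPOBOP set vehicle pools without centring. Once centred, Abcc2 (0.42), Abcc4 (0.22), Abcg5 (0.32) and Abcg8 (0.31) were positive, as in the authors' ratio, and Abcg2 (-0.21) was negative. The others of the 10 kept the changed sign once centred. Among the alternatives added after seeing the data, limma called 1 member in males at 3 h with no centring and with a mean of at least 1 FPKM, and, with the pools of the comparison alone, 0 in females at 3 h (Abcc2, Abcc3 and Abcb4 lost) and 3 in females at 27 h (Abcg5 and Abcb4 lost). limma also did not call Abcc2 in females at 3 h with no centring or with no filter on low values. For the time difference it called 2 in males with a pseudocount of 1 and 0 with a mean of at least 1 FPKM or no filter. In females it called 2 with a pseudocount of 1, and 1 with no centring or with a mean of at least 1 FPKM. For PCN minus TCPOBOP it called 1 with no centring, Abcb4 (adjusted p = 0.0289). With each of the 22 pools left out in turn, limma called 0 to 1 members in males at 3 h, 1 to 3 in females at 3 h, 2 to 6 in males at 27 h, 4 to 8 in females at 27 h and 2 to 2 after PCN. The ranges were 0 to 1 for the time difference in either sex and for PCN minus TCPOBOP, 0 to 0 for both sex differences of the response, 1 to 1 and 2 to 4 for vehicle sex differences at 3 h and 27 h, and 0 to 1 and 2 to 5 for vehicle time differences in males and females. The lowest count in females at 3 h came without the lower depth vehicle pool or the lower depth TCPOBOP pool, that in males at 27 h came without the higher depth TCPOBOP pool, where Abcc3, Abcc4, Abcg8 and Abcb4 lost their calls, and the highest in females at 27 h without the higher depth vehicle pool, where Abcc6, Abcg2 and Abcg8 gained one. The causes were not tested. Depth limits Abcb1a and Abcc4, with 4 to 86 and 12 to 72 reads per vehicle pool.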
